A study of Mus musculus with 11 samples.

Results

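The cytosolic ribosomal proteins are the genes whose mouse symbol is Rpl or Rps followed by a number, with an optional paralog suffix, plus Rpsa. Kinases of the Rps6k family and genes with the suffix -ps were left out. This naming rule found 81 of the 15113 genes in the count table, 47 of the large subunit and 34 of the small subunit, and 78 of them had enough counts to be tested. The cells were C2C12, a mouse myoblast line that fuses into multinucleated myotubes in culture, sampled as early stage myotubes at passages 2 to 5. In 5 libraries the cells carried shDRP1, a short hairpin RNA against the product of Dnm1l, a GTPase that pinches mitochondria apart. In the other 6 libraries they carried shRandom, a random hairpin. Each library was made by QuantSeq, in which a tag near the polyadenylated 3′ end is sequenced, so that 1 transcript gives about 1 tag whatever its length. The labels do not say that libraries of a group came from separate cultures, and the p-values therefore measure the spread between libraries, which may be technical.

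A ribosome has a small subunit, which binds messenger RNA and reads codons, and a large subunit, which forms peptide bonds and lets the new chain leave through a tunnel. Most of its proteins are assembled onto ribosomal RNA in equal numbers, largely in the nucleolus. Messenger RNAs of ribosomal proteins are among the most abundant in growing cells. Most of these messengers start with a run of pyrimidines, the terminal oligopyrimidine motif, through which mTOR and the RNA-binding protein LARP1 adjust their translation. In muscle, ribosome number is a known determinant of the capacity for protein synthesis.

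The sequence around the annotated start of the messenger is shown for members on which the results below turn. These are the most strongly lowered gene of each subunit (Rpl14 and Rps25), the abundant Rpl37 and the raised Rps28. The paralogs Rpl22l1, Rpl7l1 and Rps27l are shown with the parents Rpl22 and Rps27. Each line gives 40 bases from RefSeq on GRCm38.p6, 5′ to 3′, with 20 bases before and 20 from the annotated start on. Capitals mark the longest unbroken run of C or T in that window, and the first of runs of equal length. Rps28 and Rpl22 each have another run of 4 bases, which in Rps28 spans the start.
Rpl14 (chr9:120571497-120571536, plus strand): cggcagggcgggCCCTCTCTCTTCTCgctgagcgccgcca
Rps25 (chr9:44407694-44407733, plus strand): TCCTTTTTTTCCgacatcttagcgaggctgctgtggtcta
Rpl37 (chr15:5116593-5116632, plus strand): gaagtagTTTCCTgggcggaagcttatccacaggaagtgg
Rps28 (chr17:33824543-33824582, minus strand): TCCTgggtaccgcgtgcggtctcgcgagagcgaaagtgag
Rpl22l1 (chr3:28805488-28805527, plus strand): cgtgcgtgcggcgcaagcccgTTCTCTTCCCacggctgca
Rpl22 (chr4:152325706-152325745, plus strand): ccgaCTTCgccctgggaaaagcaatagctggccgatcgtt
Rpl7l1 (chr17:46782637-46782676, minus strand): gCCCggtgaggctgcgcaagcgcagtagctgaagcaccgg
Rps27l (chr9:66946066-66946105, plus strand): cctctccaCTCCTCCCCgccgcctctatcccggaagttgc
Rps27 (chr3:90213629-90213668, minus strand): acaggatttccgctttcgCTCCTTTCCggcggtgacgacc
The longest run was 14 bases in Rpl14 and 12 in Rps25, both lowered, against 4 bases in Rps28, which was raised. Other genes went the other way, with 10 bases in the raised Rpl22l1 and 6, 4 and 3 in the lowered Rpl37, Rpl22 and Rpl7l1. Rps27l and Rps27 had 9 bases each. Rpl22 and Rps27l each have another start in the table, with runs of 5 and 4 bases. In Rps25, Rpl37, Rps28, Rpl22, Rpl7l1 and Rps27l the marked run lies wholly before the RefSeq start. By that annotation it is not part of the messenger. The GENCODE annotation starts Rps25 further upstream, at chr9:44407139, so its run lies within the gene's span there. A run in this window is a description of letters and was not tested for function.

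Total counts ran from 12277622 to 20706327 in shDRP1 libraries and from 15702942 to 23082617 in shRandom libraries. Levels are counts per 1000000 counts (CPM), with library sizes scaled by TMM. The targeted Dnm1l averaged 18.7 ± 2.58 CPM in shDRP1 and 78.6 ± 8.63 CPM in shRandom libraries and fell by 2.07 on the log2 scale (SE 0.11, edgeR adjusted p = 2.72e-10). The 10 myotube markers, which include Myog, Acta1 and Ckm, summed to 73.6 to 102.5 CPM in shDRP1 and to 10614 to 11690.2 CPM in shRandom libraries, so the labelled cell type was low in its own markers in every shDRP1 library. Of 12 markers of endothelial, immune, fat, epithelial and nerve cells, only Cd68 was among the genes analysed here, at 0.309 to 0.876 CPM in shDRP1 and 0.636 to 1.08 CPM in shRandom libraries. In bulk RNA, fewer myotubes and less RNA per myotube cannot be told apart, and the part of cell composition in the ribosomal protein values was not tested.

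Across the 78 tested ribosomal protein genes, 12 were higher and 19 were lower in shDRP1 than in shRandom libraries by edgeR's quasi-likelihood test with Benjamini-Hochberg adjustment over all genes (threshold 0.05). Over the 13025 genes tested, 33.9% were higher, 33.3% were lower and 67.1% passed in either direction, so the 15.4% and 24.4% of ribosomal protein genes lay below the table's own shares. Their changes were small: the median of the absolute log2 fold change (shDRP1 over shRandom) was 0.21, against 0.47 over all tested genes. None of the 78 passed 1 on the log2 scale in either direction, a size that 25.0% of all tested genes passed. These contrasts were not matched for level. In shRandom libraries the median was 547 CPM for tested members and 19.2 CPM for all tested genes. The range ran from -0.86 for Rpl14 to 0.94 for Rps23, with a median of 0.02 beside 0.03 for all genes. In 10 members every shDRP1 library lay below every shRandom library, and in 2 every shDRP1 library lay above, where the same holds for 25.4% and 23.5% of all tested genes. Split between directions, the counts moved with the scaling. By library totals alone 19 members were higher and 10 lower, beside 40.0% and 28.8% of all tested genes. By upper quartile 20 were higher and 12 lower, beside 39.2% and 29.3%. The median of all genes was 0.13 by library totals and 0.12 by upper quartile. Without shDRP1 2, shRandom 4 or shRandom 6 the number of higher members was 6, without shDRP1 3, shRandom 2 or shRandom 3 it was 7, and without shDRP1 5 or shRandom 1 it was 18.

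**Figure D1:**
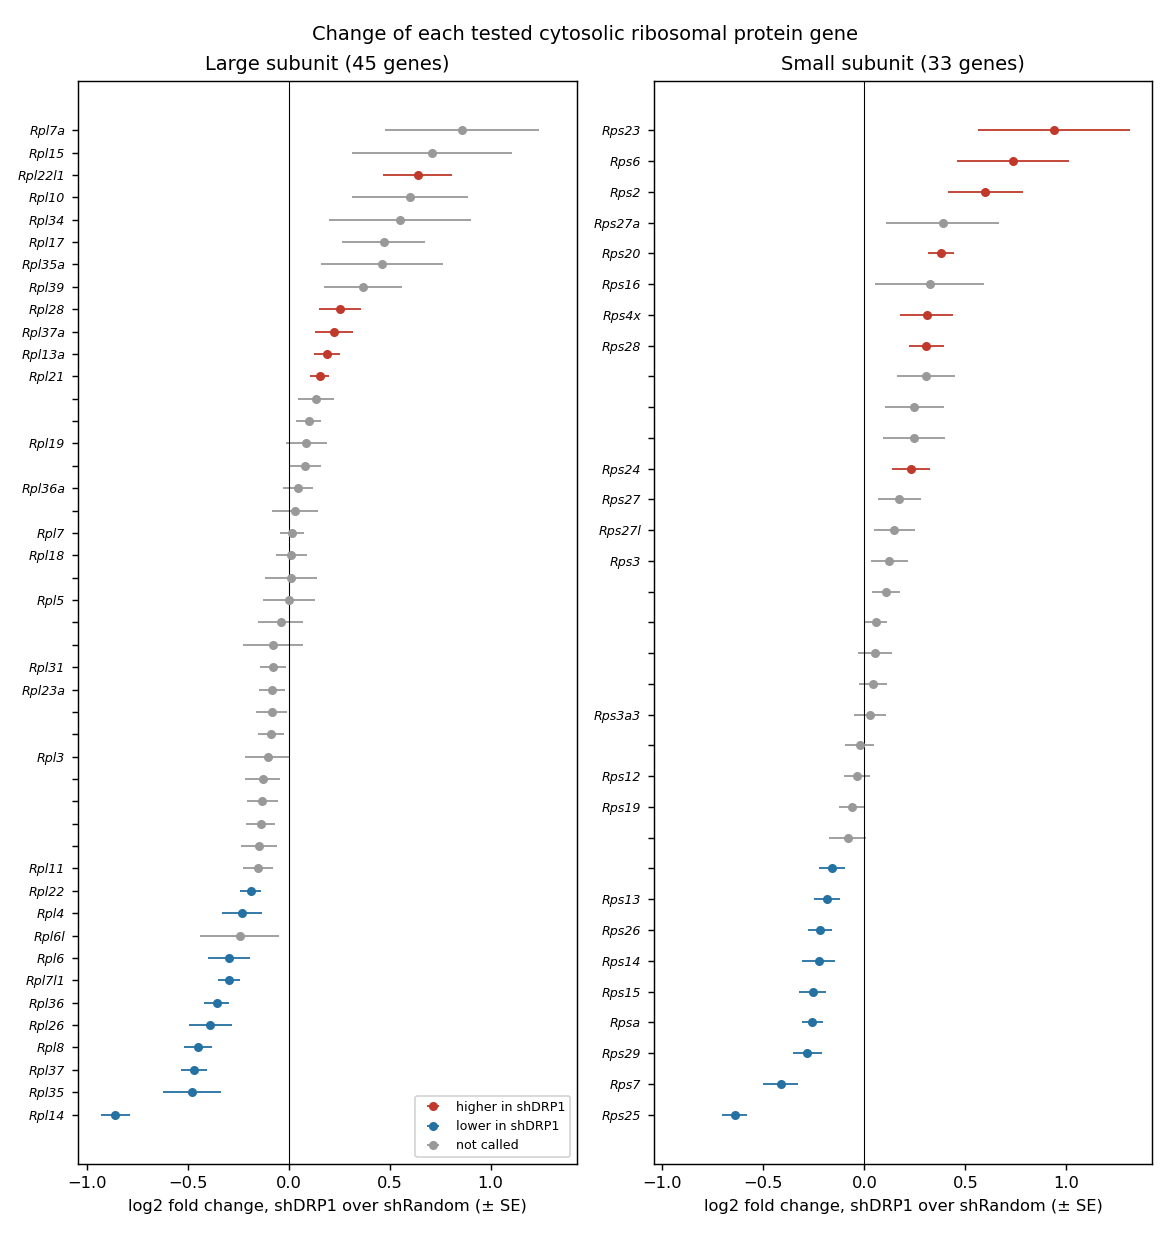
Log2 fold change (shDRP1 over shRandom) with its standard error for each of the 78 tested ribosomal protein genes, large subunit on the left (45 genes) and small subunit on the right (33 genes), ordered by value and coloured by the edgeR call, with names for genes described in the text. Rpl14 at -0.86 and Rps25 at -0.64 sit at the low ends, and the longest error bars belong to genes near the top of each panel.

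In the large subunit, 5 of 45 tested genes rose and 10 fell (11.1% and 22.2%, against 33.9% and 33.3% of all tested genes). The median log2 fold change of the 45 was -0.04. That median was 0.06 when libraries were scaled by their totals and 0.04 by upper quartile, so its sign depends on the scaling. The number that rose was 3 without any of shDRP1 2, 3 or 4 or shRandom 2, 3, 4, 5 or 6, and 9 without shDRP1 5 or shRandom 1.

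Among the large subunit genes that fell, Rpl14 (chr9:120571444-120574654, plus strand) moved furthest. Its product is a large subunit protein without a bacterial counterpart. Rpl14 had 586, 558, 576, 629.9 and 663 CPM in shDRP1 libraries 1 to 5, against 978 to 1214 CPM (median 1077) in the 6 shRandom libraries. All shDRP1 libraries lay far below the lowest shRandom library, at 55.1% of the shRandom mean on average. Rpl14 fell by 0.86 on the log2 scale (SE 0.072, edgeR adjusted p = 7.57e-08). Rpl37 (chr15:5116645-5119140, plus strand) encodes a zinc-binding protein and had the highest CPM of all members in shRandom libraries. It had 2919, 2721, 3191, 3164 and 2876 CPM in shDRP1 libraries, against 3805 to 4434 CPM (median 4119.9) in shRandom libraries. The groups did not overlap, and Rpl37 fell by 0.47 on the log2 scale (SE 0.064, edgeR adjusted p = 1.39e-05). Rpl8 (chr15:76904078-76906314, plus strand) encodes a protein that reaches towards the peptidyl transferase centre. Its level was 1314, 1226, 1403, 1489.6 and 1456 CPM in shDRP1 libraries, against 1731 to 2061 CPM (median 1851) in shRandom libraries. These groups were also separate, and Rpl8 fell by 0.45 on the log2 scale (SE 0.070, edgeR adjusted p = 5.20e-05).

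Rpl36 (chr17:56613416-56614243, plus strand) had 317, 322, 349.7, 333 and 328 CPM in shDRP1 libraries, against 379 to 455 CPM (median 422) in shRandom libraries. No shDRP1 library reached the lowest shRandom library, and Rpl36 fell by 0.36 on the log2 scale (SE 0.061, edgeR adjusted p = 1.16e-04). The end of its transcript has 1 near-identical copy in the annotation, so its count may be split between them. The other large subunit genes that fell were Rpl7l1 (described with the paralogs), Rpl35 (-0.48, adjusted p = 0.00989), Rpl26 (-0.39, 0.00565), Rpl6 (-0.29, 0.0199), Rpl4 (-0.23, 0.0486) and Rpl22 (-0.19, 0.00620), each as a log2 fold change with its edgeR adjusted p. The groups overlapped in Rpl35, Rpl26, Rpl6 and Rpl4, but not in Rpl22. Rpl26 was counted at only 10.7 ± 0.880 CPM in shDRP1 and 14.0 ± 1.97 CPM in shRandom libraries. The transcript end of Rpl35, like that of Rpl36, has 1 near-identical copy in the annotation. Rpl6 lost its call without shDRP1 3, and Rpl4 without any of shDRP1 1, 4 or 5 or shRandom 1, 2, 5 or 6.

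**Figure D2:**
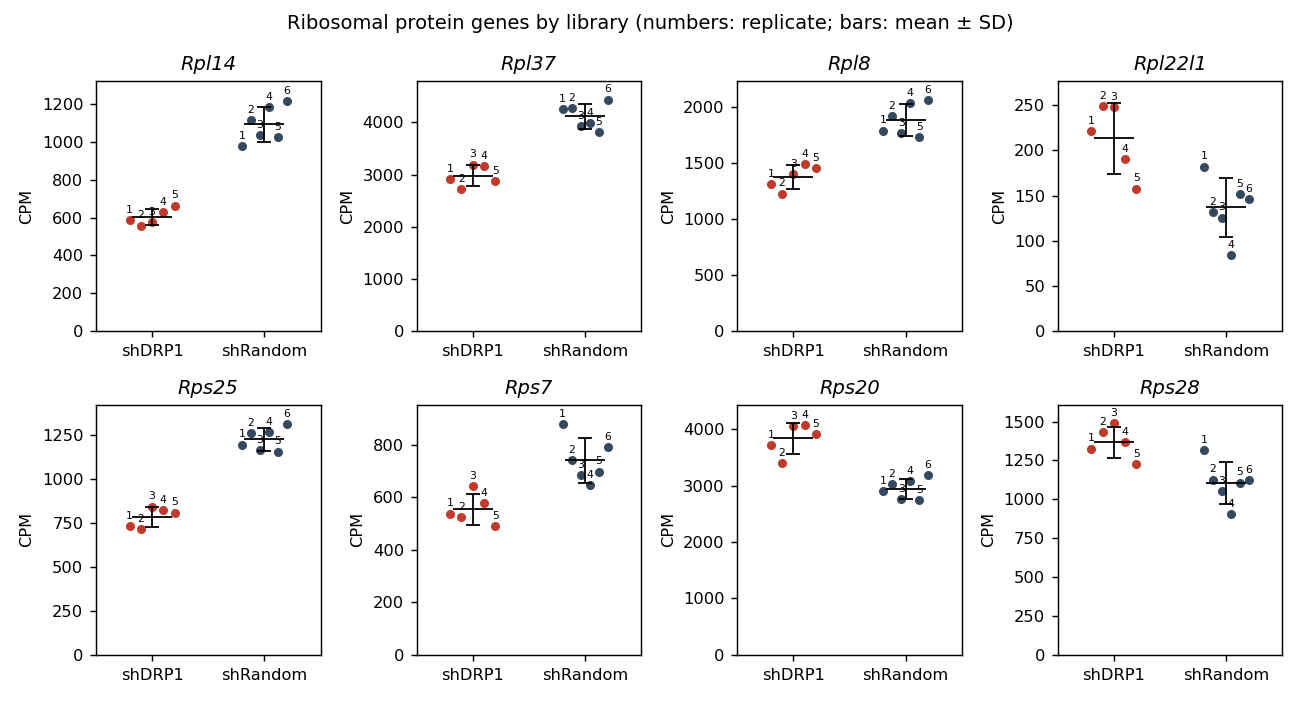
CPM (TMM-scaled) of 8 members in each library, shDRP1 left of shRandom, with replicate numbers beside the points and bars for the mean ± SD. Rpl14, Rpl37, Rpl8, Rps25 and Rps7 lie lower and Rps20 higher in all 5 shDRP1 libraries than in any shRandom library, whereas Rpl22l1 and Rps28 overlap through shDRP1 5 and shRandom 1.

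Of the 5 large subunit genes that rose, Rpl22l1 moved furthest and is described with the paralogs. Rpl21 (chr5:146832890-146837032, plus strand) had 378, 408, 385, 391 and 398 CPM in shDRP1 libraries, against 339.7 to 369 CPM (median 351) in shRandom libraries. Every shDRP1 value lay above every shRandom value, by a small margin, and Rpl21 rose by 0.15 on the log2 scale (SE 0.047, edgeR adjusted p = 0.0102). Without shRandom 1 and shDRP1 2 together, that call was lost. Rpl13a, whose product in human and mouse macrophages also represses the translation of inflammatory messengers, had 1119, 1157, 1331, 1311 and 1194 CPM in shDRP1 libraries, against 983 to 1135 CPM (median 1077) in shRandom libraries. Only shDRP1 1 fell inside the shRandom range, and Rpl13a rose by 0.19 on the log2 scale (SE 0.064, edgeR adjusted p = 0.0173). Rpl28, which Saccharomyces cerevisiae lacks, averaged 358 ± 51.0 CPM in shDRP1 and 299.9 ± 40.3 CPM in shRandom libraries, and Rpl37a, which encodes a zinc-binding protein, averaged 965 ± 115 CPM in shDRP1 and 826 ± 94.3 CPM in shRandom libraries. Their log2 fold changes were 0.26 and 0.22, with edgeR adjusted p of 0.0413 and 0.0444, and the groups overlapped in both.

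In the small subunit, 7 of 33 tested genes rose and 9 fell (21.2% and 27.3%, against 33.9% and 33.3% of all tested genes). The median log2 fold change of the 33 was 0.06, and it was 0.16 by library totals and 0.14 by upper quartile. The number that rose was 3 without shDRP1 2, shRandom 4 or shRandom 6, and 4 without shDRP1 3, shRandom 2 or shRandom 3. Scaling by library totals left 3 that fell, and upper quartile scaling left 5, where 28.8% and 29.3% of all tested genes were lower.

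Rps25 (chr9:44407139-44410427, plus strand), which in yeast and human cells is needed for initiation at some internal ribosome entry sites, had the strongest decrease of the small subunit. Its level was 734, 714, 843, 824 and 809 CPM in shDRP1 libraries 1 to 5, against 1155 to 1312 CPM (median 1229) in shRandom libraries. The groups lay well apart, with shDRP1 at 64.0% of the shRandom mean, and Rps25 fell by 0.64 on the log2 scale (SE 0.063, edgeR adjusted p = 4.06e-07). Its annotated span overlaps Ccdc84 and Trappc4, and no strand setting of the counting is given, so reads of these genes cannot be told apart. Rpsa, also known as the laminin receptor precursor, had 542, 520.2, 591, 591 and 579 CPM in shDRP1 libraries, against 655 to 697 CPM (median 674) in shRandom libraries. All 5 shDRP1 libraries were below all 6 shRandom libraries, and Rpsa fell by 0.26 on the log2 scale (SE 0.053, edgeR adjusted p = 5.65e-04). Rps7 (chr12:28630854-28635953, minus strand), which takes part in small subunit assembly, had 538, 526, 644, 579 and 490.3 CPM in shDRP1 libraries, against 647 to 879.9 CPM (median 721) in shRandom libraries. The groups touched without overlapping, since shDRP1 3 came just under shRandom 4, and Rps7 fell by 0.42 on the log2 scale (SE 0.088, edgeR adjusted p = 7.79e-04).

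Rps29, a zinc-binding protein of the subunit's head, averaged 1139.8 ± 65.0 CPM in shDRP1 and 1387 ± 131 CPM in shRandom libraries and fell by 0.28 on the log2 scale (SE 0.072, edgeR adjusted p = 0.00310). Here shDRP1 3 lay above shRandom 4, and the groups overlapped at that point only. Rps15 averaged 949 ± 78.8 CPM in shDRP1 and 1133 ± 68.5 CPM in shRandom libraries and fell by 0.26 on the log2 scale (SE 0.066, edgeR adjusted p = 0.00348), with shDRP1 3 inside the shRandom range. Rps26, Rps14 and Rps13 also fell by 0.22, 0.23 and 0.19 on the log2 scale, with edgeR adjusted p of 0.00500, 0.0236 and 0.0180. The groups overlapped in Rps14 and Rps13 but not in Rps26. The transcript ends of Rps26 and Rps13 have 2 and 1 near-identical copies in the annotation. Rps14 lost its call without shRandom 2, 4 or 6.

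Rps20 (chr4:3831334-3835665, minus strand), a protein of the head of the small subunit, had the smallest adjusted p among the members that rose. It had 3724, 3405, 4057, 4075 and 3919 CPM in shDRP1 libraries, against 2745 to 3185 CPM (median 2963) in shRandom libraries. All shDRP1 libraries were above all shRandom libraries, and Rps20 rose by 0.38 on the log2 scale (SE 0.065, edgeR adjusted p = 1.23e-04). Rps28 (chr17:33819027-33824562, minus strand), near the channel where messenger RNA leaves, had 1326, 1432, 1488, 1368 and 1225 CPM in shDRP1 libraries, against 903 to 1318 CPM (median 1117) in shRandom libraries. Only shDRP1 5 lay within the shRandom range, under shRandom 1, and Rps28 rose by 0.31 on the log2 scale (SE 0.085, edgeR adjusted p = 0.00518). Its span overlaps Kank3. Rps2, at the channel where messenger RNA enters, had 159, 251, 224, 161 and 135 CPM in shDRP1 libraries, against 79.4 to 166 CPM (median 122) in shRandom libraries. In shDRP1 1, 4 and 5 it was under the value of shRandom 1, and Rps2 rose by 0.60 on the log2 scale (SE 0.19, edgeR adjusted p = 0.0126).

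Rps6 encodes the protein that the S6 kinases phosphorylate downstream of mTOR. It was counted at only 12.2, 36.2, 15.1, 12.2 and 12.4 CPM in shDRP1 libraries, against 7.74 to 12.8 CPM (median 10.8) in shRandom libraries. Only shDRP1 2 and shDRP1 3 lay above the highest shRandom library, and shDRP1 2 stood far above the rest. Rps6 rose by 0.74 on the log2 scale (SE 0.28, edgeR adjusted p = 0.0319), a call that was lost without shDRP1 2 or without shRandom 1, 4 or 6. Its log2 fold change was 0.30 at the lowest of these single omissions. Rps24 and Rps4x rose by 0.23 and 0.31 on the log2 scale, with edgeR adjusted p of 0.0420 and 0.0496 and overlapping groups.

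Of the 31 calls, 14 were kept in each of 23 other settings of scaling, filter, test and libraries, and none was reversed. The 10 lower ones were Rpl14, Rpl37, Rpl8, Rpl36, Rpl35, Rpl26, Rpl7l1, Rps25, Rps7 and Rpsa, and the 4 higher ones were Rps20, Rps28, Rps2 and Rpl22l1. Scaling by library totals or by upper quartile ended the lower calls of Rpl22, Rpl4, Rpl6, Rps14, Rps26 and Rps13, and library totals also those of Rps29 and Rps15. The calls of Rpl28, Rpl37a, Rps23, Rps24 and Rps4x were lost without shDRP1 2 or 3 or without shRandom 2, 3, 4 or 6. Those of Rpl37a, Rps23 and Rps4x were also lost without shDRP1 1, those of Rpl28, Rpl37a and Rps4x without shDRP1 4, and those of Rpl28, Rpl37a, Rps24 and Rps4x without shRandom 5.

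The members took 6.63% ± 0.479 of all counts in shDRP1 libraries and 6.43% ± 0.411 in shRandom libraries (SD, n = 5 and 6). Shares of shDRP1 libraries 1 to 5 were 6.43%, 6.72%, 7.34%, 6.65% and 6.03%, and those of shRandom libraries ran from 5.93% to 7.09% (median 6.38%). The ranges overlapped along most of their length. For each count on a small subunit gene there were 0.902 ± 0.0232 counts on large subunit genes in shDRP1 libraries and 0.960 ± 0.0128 in shRandom libraries. By library the ratio was 0.902, 0.941126, 0.899, 0.887 and 0.882 in shDRP1, against 0.941435 to 0.980 (median 0.960) in shRandom. The groups therefore met without overlapping, at shDRP1 2 and shRandom 4. Rpl37 and Rps20, each among the most abundant members, moved in opposite directions, and without these 2 genes the ratio was 0.919 ± 0.0227 in shDRP1 and 0.918 ± 0.0118 in shRandom libraries. This omission was chosen after the values were seen.

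**Figure D3:**
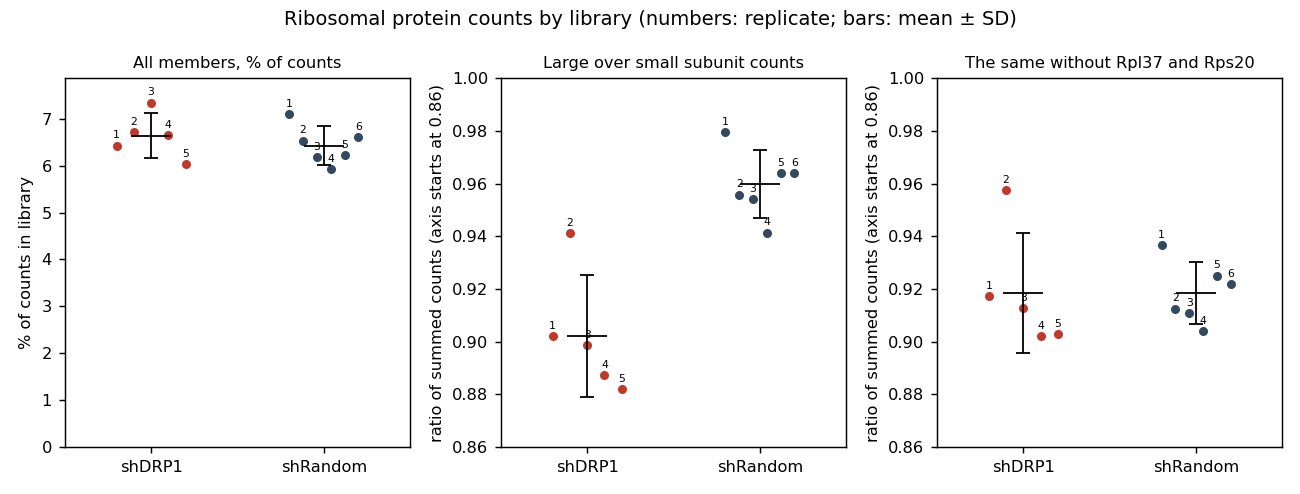
Share of counts taken by all 81 members (left), ratio of summed large to summed small subunit counts (middle) and the same ratio without Rpl37 and Rps20 (right) in each library, shDRP1 left of shRandom, with bars for the mean ± SD. The ratio averages 0.902 in shDRP1 and 0.960 in shRandom libraries, and 0.919 and 0.918 without the 2 genes.

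Members were also grouped by their place in the ribosome. Rpl5 and Rpl11, which enter the large subunit together with 5S ribosomal RNA and bind MDM2 when assembly is disturbed, had log2 fold changes of 0.00 ± 0.13 and -0.15 ± 0.074 (SE), neither past the threshold. Beside the peptidyl transferase centre only Rpl8 of 3 genes fell, while Rpl3 had -0.10 ± 0.11 and Rpl10 0.60 ± 0.29. On the wall of the exit tunnel Rpl4 fell, and Rpl17 and Rpl39 did not pass at 0.47 ± 0.21 and 0.37 ± 0.19. Without shDRP1 5 or shRandom 1, Rpl10, Rpl17 and Rpl39 each became a higher call, and without shDRP1 2 Rpl17 and Rpl39 had 0.30 and 0.21. Rpl17 was also a higher call by library totals, by upper quartile and by DESeq2. Rpl11 became a lower call without shDRP1 3 or shRandom 4. Around the tunnel's exit Rpl26 and Rpl35 fell, whereas Rpl19, Rpl23a and Rpl31, with 0.09 ± 0.10, -0.08 ± 0.065 and -0.08 ± 0.065, did not pass. At the decoding site of the small subunit the 2 genes went opposite ways.

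Rps23, which helps to monitor codon pairing, had 273, 554, 405, 203 and 151 CPM in shDRP1 libraries, against 72.4 to 297 CPM (median 150.5) in shRandom libraries. Its groups overlapped broadly, with shDRP1 2 highest and shRandom 4 lowest of all, and Rps23 rose by 0.94 on the log2 scale (SE 0.38, edgeR adjusted p = 0.0426). Rps15, whose tail reaches the same site, fell as given above. Where messenger RNA enters, Rps2 rose and Rps3 had 0.12 ± 0.092. Where it leaves, Rps28 rose, and Rps26 and Rps14 fell.

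Rpl22l1 and Rpl22 encode exchangeable forms of the same large subunit protein, and in mouse cells RPL22 represses the Rpl22l1 messenger. Rpl22l1 (chr3:28805436-28807424, plus strand) had 222, 249, 248, 191 and 158 CPM in shDRP1 libraries, against 84.1 to 182 CPM (median 139) in shRandom libraries. Only shDRP1 5 lay below the highest shRandom library, and Rpl22l1 rose by 0.64 on the log2 scale (SE 0.17, edgeR adjusted p = 0.00468). Rpl22 had 753, 768, 809, 792 and 765 CPM in shDRP1 libraries, against 824 to 948 CPM (median 885) in shRandom libraries. Its groups did not overlap, and Rpl22 fell by 0.19 on the log2 scale (SE 0.053, edgeR adjusted p = 0.00620), although that call was lost when libraries were scaled by totals or by upper quartile. Within a library the ratio of the paralogs needs no scaling, but it can still vary between libraries of a group. Rpl22l1 stood at 29.4%, 32.5%, 30.6%, 24.1% and 20.6% of Rpl22 in shDRP1 libraries 1 to 5, against 10.2% to 20.1% (median 15.0%) in shRandom libraries. All 5 shDRP1 libraries were above all 6 shRandom libraries, by 0.84 on the log2 scale (two-sided exact permutation test over 462 splits, p = 0.00433, 0.0108 adjusted over 5 pairs). Leaving out single libraries gave differences of 0.73 to 0.94. Within the groups the ratio was highest in shDRP1 2 and shRandom 1 and lowest in shDRP1 5 and shRandom 4. That is the shared order of libraries described below.

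Rpl7l1, whose product resembles the yeast assembly factor Rlp7, had 99.6, 99.7, 89.0, 91.5 and 99.2 CPM in shDRP1 libraries, against 110.1 to 122 CPM (median 118) in shRandom libraries. The shDRP1 libraries were all below the shRandom libraries, and Rpl7l1 fell by 0.30 on the log2 scale (SE 0.054, edgeR adjusted p = 2.17e-04). The end of its transcript matches 28 other annotated genes, so its level is uncertain. The parent Rpl7 averaged 1508 ± 82.1 CPM in shDRP1 and 1490.2 ± 92.3 CPM in shRandom libraries and did not pass (adjusted p = 0.810, edgeR). Relative to Rpl7, Rpl7l1 stood at 6.88%, 7.13%, 5.65%, 5.78% and 6.46% in shDRP1 libraries, against 7.33% to 8.64% (median 7.83%) in shRandom libraries. The groups did not overlap, with a difference of -0.31 on the log2 scale (p = 0.00216 by the same exact permutation test, the lowest that 462 splits allow, and 0.0108 adjusted over 5 pairs).

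**Figure D4:**
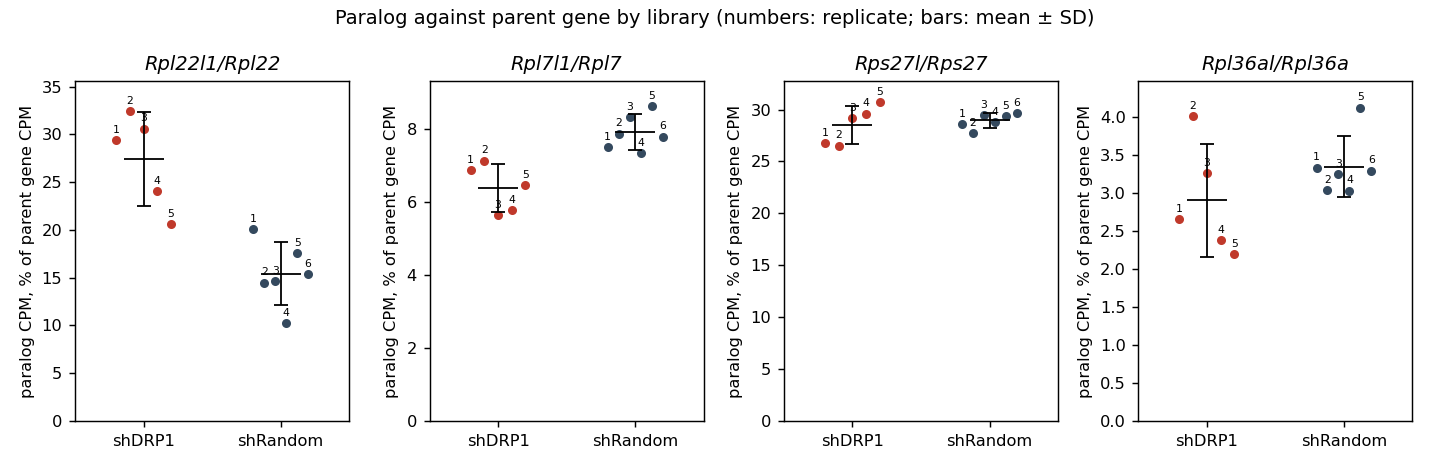
CPM of a paralog as a percentage of the CPM of its parent gene in each library, shDRP1 left of shRandom, for 4 pairs, with bars for the mean ± SD. Rpl22l1/Rpl22 is higher (20.6% to 32.5% against 10.2% to 20.1%) and Rpl7l1/Rpl7 lower in all shDRP1 libraries, whereas Rps27l/Rps27 and Rpl36al/Rpl36a overlap.

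The other pairs did not pass. Rps27l, a p53 target, was at 26.7%, 26.5%, 29.2%, 29.6% and 30.7% of Rps27 in shDRP1 libraries, against 27.7% to 29.7% (median 29.1%) in shRandom libraries, a log2 difference of -0.02 (exact permutation test, adjusted p = 0.591). Rpl36al against Rpl36a differed by -0.23 (adjusted p = 0.285, same test). Without shDRP1 2 that difference was -0.36 with an adjusted p of 0.0317. Rps27rt against Rps27 differed by -0.25 (adjusted p = 0.325, same test), and by -0.12 without shDRP1 2 and -0.14 without shDRP1 3. Rpl3l, the form of Rpl3 that heart and skeletal muscle use, was too rare to test, with 1 count in all shDRP1 libraries together and 15 counts in all shRandom libraries together. Scaled to library totals, that is a shDRP1 over shRandom ratio of 0.0883 (95% exact binomial interval 0.00210 to 0.574, counting error only). For Rpl10l, Rpl39l and Rps4l no count was analysed here.

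Libraries of the same group differed from each other in the ribosomal protein genes along a shared order. In 46 of the 78 members (59.0%) shRandom 1 was the highest and shRandom 4 the lowest shRandom library, against 15.9% of the other 12947 tested genes. In 45 members (57.7%) shDRP1 2 or shDRP1 3 was the highest and shDRP1 5 the lowest shDRP1 library, against 21.0% of other genes. Both held in 43 members (55.1%) and in 10.8% of other genes. The libraries that define the order were picked after the values were seen. These shares therefore describe the order and do not test it.

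The size of that spread differed widely between members. The highest library was at least 2-fold over the lowest in both groups for 9 members, Rpl7a, Rpl10, Rpl15, Rpl17, Rpl34, Rpl35a, Rps16, Rps23 and Rps27a, and under 1.3-fold in both groups for 29. Rpl7a had 215, 449, 291, 162 and 121 CPM in shDRP1 libraries 1 to 5, against 252, 117, 123, 55.9, 165 and 105 CPM in shRandom libraries 1 to 6. Its mean was 247 CPM in shDRP1 and 136 CPM in shRandom libraries, and with a log2 fold change of 0.86 ± 0.38 it did not pass (edgeR adjusted p = 0.0649). Rpl7a became a higher call without shDRP1 5 or shRandom 1, by library totals and by upper quartile, and without shDRP1 2 it had 0.52. Rpl15 was at 36.4, 109.8, 60.5, 26.6 and 21.2 CPM in shDRP1 libraries, against 18.9 to 50.8 CPM (median 27.3) in shRandom libraries. It too overlapped and did not pass, at 0.71 ± 0.40 (edgeR adjusted p = 0.133), and without shDRP1 2 its log2 fold change was 0.22.

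Genes outside the family showed the order too. Gapdh, which encodes a glycolytic enzyme, had 48.8, 90.3, 55.8, 31.0 and 19.8 CPM in shDRP1 libraries 1 to 5, against 78.9, 33.9, 33.3, 12.6, 46.3 and 27.2 CPM in shRandom libraries 1 to 6. The first principal component of the within-group deviations of 6398 genes outside the family held 65.3% of their variance. It scored shDRP1 libraries 1 to 5 at -1.39, 16.9, 8.55, -8.59 and -15.5, and shRandom libraries 1 to 6 at 17.9, -1.52, -1.55, -17.1, 4.95 and -2.67. Mitochondrial ribosomal RNA (mt-Rnr1 with mt-Rnr2) took 2.63%, 1.84%, 2.09%, 2.97% and 3.18% of counts in shDRP1 libraries 1 to 5, against 1.47%, 2.33%, 2.41%, 2.80%, 2.85% and 2.08% in shRandom libraries 1 to 6. That share was lowest in shDRP1 2 and shRandom 1, which score highest. Among shRandom libraries the share and the score did not run opposite throughout. There shRandom 5 had the highest share with a score of 4.95, and shRandom 6 a low share with a score of -2.67. The part of this share in the order was not tested. The labels name no batch.

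**Figure D5:**
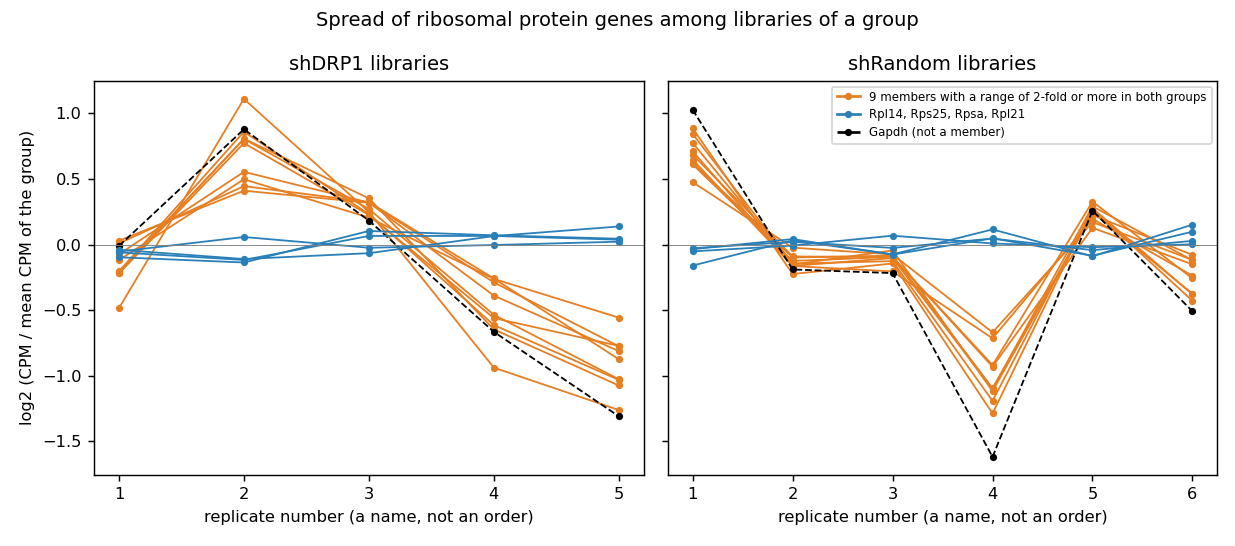
Log2 of each library's CPM over the mean CPM of its group, shDRP1 libraries left and shRandom libraries right, for the 9 members with a range of 2-fold or more in both groups (orange), for Rpl14, Rps25, Rpsa and Rpl21 (blue) and for Gapdh (dashed). Lines join the values of 1 gene and imply no order of replicates; the orange genes and Gapdh peak in shDRP1 2 and shRandom 1 and are lowest in shDRP1 5 and shRandom 4, while the blue genes, chosen after their values were seen, stay near 0.

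Members in that order had wider errors. The 43 genes had a median standard error of 0.112 on the log2 scale, and 8 of them were called higher and 3 lower. The other 35 had a median standard error of 0.0652, with 4 called higher and 16 lower. Over all tested genes, 33.9% were higher and 33.3% lower. Both sets were formed from these same data, and the difference in calls between them was not tested. When the library score was added to the edgeR model, 28 members were higher and 23 lower, beside 39.1% and 37.1% of all tested genes. Rps23 then had 0.91 (adjusted p = 2.02e-13), Rpl7a 0.85 (1.53e-12), Rpl17 0.46 (1.57e-09) and Rps2 0.59 (6.11e-10) as log2 fold changes in that edgeR model. This model was chosen after seeing the data, and its score comes from the same libraries, so these p-values may be too small. Rpl14 and Rps25 had -0.86 and -0.64 in it, as without the score.

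Messengers of the family were abundant in both groups. The median tested member had 555 CPM in shDRP1 and 547 CPM in shRandom libraries, beside 19.2 CPM for all tested genes in shRandom libraries. In shRandom libraries 25 members were above 1000 CPM and 9 were under 100 CPM. Rps12, with 3861 ± 296 CPM in shDRP1 and 3962 ± 213 CPM in shRandom libraries, and Rpl23a, with 2432 ± 206 CPM in shDRP1 and 2576 ± 120.4 CPM in shRandom libraries, are among the most abundant and did not pass. Rps12 and Rpl23a changed sign between scalings, so no direction is given for either. A low level need not mean a rare messenger: 24 members have at least 1 near-identical transcript end in the annotation (at least 95% identity over 75 of the last 100 bases), where counting may lose or move reads. Rpl29 (8 to 13 counts per shDRP1 library, 3 to 19 per shRandom library) and Rps3a2 (2 to 10 and 1 to 6) were too rare to test, like Rpl3l. Rpl6l, Rps3a2 and Rps3a3 are annotated as processed pseudogenes, although their symbols meet the rule.

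The naming rule misses further ribosomal protein genes, among them those of the stalk. Rplp2, a protein of the stalk that recruits elongation factors, had 1129.6, 1167, 1213, 1213 and 1145 CPM in shDRP1 libraries, against 1367 to 1517 CPM (median 1489) in shRandom libraries. The groups did not overlap, and Rplp2 fell by 0.32 on the log2 scale (SE 0.052, edgeR adjusted p = 8.10e-05). Its stalk partners Rplp0 and Rplp1 had 0.15 ± 0.075 and 0.03 ± 0.084 and did not pass, although Rplp0 became a higher call by library totals, by upper quartile and without shDRP1 5 or shRandom 1. Fau, which encodes a ribosomal protein fused to a ubiquitin-like part, fell by 0.21 on the log2 scale (edgeR adjusted p = 0.0169). Its call was lost under scaling by library totals or by upper quartile. Rack1, a scaffold on the small subunit's head, had -0.12 ± 0.060. Rpl36al is given with the paralogs.

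Of the 81 members, 59 had a promoter in the RefSeq table, with 71 start sites. A run of at least 8 pyrimidines lay within 20 bases on either side of the start in 42.3% of these, against 16.0% of all 32851 promoters. The letters CCGGAAG, a core of ETS factor sites, were found on either strand in 35.2% of member promoters and in 8.86% of all promoters of 300 bases. AAGATGG, a core of YY1 sites, was found in 16.9% and 6.34%. Among members, the pyrimidine run was present at 45.5% of starts of genes that rose (5 of 11), 33.3% of those that fell (5 of 15) and 46.5% of those that did not pass (20 of 43). CCGGAAG was present at 18.2%, 53.3% and 34.9% of them (2, 8 and 15 starts). These counts are small, and the differences were not tested.

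Of 34 tested ribosome assembly factors, none rose and 26 fell, with a median log2 fold change of -0.46, where 33.9% and 33.3% of all tested genes were higher and lower. Rrp12, which helps to export the small subunit precursor, had 10.8, 6.73, 10.04, 9.14 and 11.2 CPM in shDRP1 libraries, against 30.4 to 45.0 CPM (median 38.1) in shRandom libraries. The groups lay far apart, and Rrp12 fell by 1.99 on the log2 scale (SE 0.14, edgeR adjusted p = 9.75e-09). Bop1, which processes the large subunit's ribosomal RNA, averaged 52.9 ± 2.95 CPM in shDRP1 and 99.2 ± 6.81 CPM in shRandom libraries and fell by 0.91 on the log2 scale (SE 0.064, edgeR adjusted p = 1.05e-08). The abundant nucleolar proteins Npm1 and Ncl had 0.17 ± 0.076 and -0.18 ± 0.092 and did not pass, and neither did Fbl at -0.09 ± 0.12.

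Among 12 genes of RNA polymerase I transcription, which makes ribosomal RNA, 5 rose and 5 fell, 41.7% each way, where 33.9% and 33.3% of all tested genes were higher and lower. Rrn3, the factor that brings the polymerase to the promoter, averaged 58.3 ± 3.16 CPM in shDRP1 and 76.4 ± 4.62 CPM in shRandom libraries and fell by 0.39 on the log2 scale (SE 0.061, edgeR adjusted p = 5.55e-05). Myc, a general activator of ribosome production, was at 1.22, 1.70, 1.08, 1.79 and 1.63 CPM in shDRP1 libraries, against 2.32 to 4.50 CPM (median 3.45) in shRandom libraries. It was low in every library, its groups did not overlap, and Myc fell by 1.20 on the log2 scale (SE 0.20, edgeR adjusted p = 9.96e-05). The polymerase subunits Polr1d and Polr1e rose by 0.45 and 0.52 on the log2 scale (edgeR adjusted p = 1.98e-04 and 3.31e-04).

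In the mTOR and LARP1 list, which sets the translation of pyrimidine-start messengers, 4 of 14 genes rose and 7 fell (28.6% and 50.0%, against 33.9% and 33.3% of all tested genes), with a median log2 fold change of -0.27. Deptor, an inhibitor bound to mTOR, had 119, 102, 119, 115 and 115 CPM in shDRP1 libraries, against 558 to 737 CPM (median 605) in shRandom libraries. All shDRP1 libraries were far lower, and Deptor fell by 2.44 on the log2 scale (SE 0.080, edgeR adjusted p = 2.25e-12). Eif4ebp1, the translation repressor that mTOR inactivates, averaged 306 ± 12.2 CPM in shDRP1 and 744 ± 52.9 CPM in shRandom libraries and fell by 1.28 on the log2 scale (SE 0.062, edgeR adjusted p = 1.50e-10). Eif4ebp2, its paralog, averaged 85.4 ± 30.5 CPM in shDRP1 and 39.4 ± 14.5 CPM in shRandom libraries and rose by 1.12 on the log2 scale (SE 0.30, edgeR adjusted p = 0.00568), with overlapping groups. Mlst8, a subunit shared by the mTOR complexes, rose by 0.53 on the log2 scale (SE 0.11, edgeR adjusted p = 8.03e-04), while Mtor, Rptor and Larp1 fell by 0.90, 1.23 and 0.34 on the log2 scale.

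Of 16 translation factors and related messengers known to carry the pyrimidine start in human cells, 2 rose and 6 fell (12.5% and 37.5%, against 33.9% and 33.3% of all tested genes), with a median log2 fold change of -0.13. Eef2, which moves the ribosome along the messenger, had 1715, 1622, 1816, 1951 and 1821 CPM in shDRP1 libraries, against 2459.7 to 2950.3 CPM (median 2712) in shRandom libraries. Its groups were separate, and Eef2 fell by 0.60 on the log2 scale (SE 0.067, edgeR adjusted p = 1.70e-06). Eif3l and Eif3e, subunits of the same initiation factor, went opposite ways: Eif3l fell by 0.36 on the log2 scale (SE 0.052, edgeR adjusted p = 2.41e-05) and Eif3e rose by 1.01 on the log2 scale (SE 0.11, edgeR adjusted p = 1.08e-06). Eef1g rose by 0.37 on the log2 scale (SE 0.052, edgeR adjusted p = 1.99e-05). Eef1a1, which delivers transfer RNA, had -0.04 ± 0.14 and did not pass.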

How the data were processed

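The deposited table holds whole-number counts of tags per gene for 5 shDRP1 and 6 shRandom libraries, not normalized. The authors' second deposited table gives a scaled signal, each value being the count times a constant of its library (checked on the values); it entered no test. Per the series text, reads were aligned in the BlueBee software, and per the submitters' processing notes GRCm38, mm10 and DESeq2 version 1.22.2 were used. Which aligner and counter ran, with what strand setting and gene models, is not given in the sources used here.

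Symbols were matched by gene identifier (15080 of 15113). Positions and transcript ends came from GENCODE M21 on GRCm38, and ends were compared with BLAST version 2.17.0. The test was edgeR's quasi-likelihood test (version 4.0.16, R version 4.3.3), robust, with group alone in the model, after filterByExpr, which left 13025 genes, and TMM scaling. Benjamini-Hochberg adjustment ran over all genes tested. CPM (counts per 1000000) use TMM-scaled library sizes. SE is a standard error of the log2 fold change derived from the test. It is the absolute log2 fold change over the square root of the quasi-likelihood F statistic. These steps were run on simulated counts with known changes in few genes. The simulated libraries had no shared order, so that run does not measure the error rate in these data. Log2 ratios of paralogs were put to an exact permutation test, two-sided (0.1 CPM added to both genes). The library score is the first principal component of within-group deviations of log2(CPM + 0.5), over genes outside the family with a mean of at least 20 CPM.

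Named are all paralog pairs, up to 5 lower and 5 higher members of each subunit by adjusted p, the 3 most abundant of each, the genes of the site lists, ribosomal proteins outside the rule, and up to 2 genes in each direction of every other list. Further members with a wide or narrow spread, Mtor, Rptor, Larp1, Npm1, Ncl, Fbl, Eef1a1, Gapdh and the remaining called members were chosen after their values were seen. The members and lists were chosen with earlier results of these data known. Alternatives were other scalings, filters and tests (DESeq2 version 1.42.0, limma-voom with limma version 3.58.1), a replicate block, thinned counts and leaving out each library. Added after seeing the data were the library score as a covariate, leaving out 2 or 4 libraries together, and the subunit ratio without Rpl37 and Rps20. The libraries that define the shared order were also picked after seeing the data. Library pairs within groups differed beyond counting noise (chi-square over degrees of freedom 5.30 to 61.6), so none was counted as a repeat. Some genes that the naming rules select are not reported here.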

Additional observations from a re-analysis of the deposited data

Results flagged for a closer look

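Dixon's ratio is the gap of 1 library to the nearest, over the group's whole range. By this ratio 1 library stood apart from the rest for 7 of 156 combinations of quantity and group. The quantities were the CPM of single genes, the members' share of counts and the subunit ratio. Chance gives about 1 in 20. Rps6 in shDRP1 2 had 36.2 CPM, against 12.2 to 15.1 CPM in the other shDRP1 libraries (ratio 0.878). Rpl19 in shDRP1 2 had 126.2 CPM, against 87.4 to 97.2 CPM in the others (0.746). Rps24 in shRandom 4 had 904.0 CPM, against 1076 to 1164 CPM in the other shRandom libraries (0.661). Outside the family, Eif3l was highest in shDRP1 3 (0.712), Deptor lowest in shDRP1 2 (0.713), Eif4ebp1 lowest in shDRP1 3 (0.789) and Mb highest in shRandom 4 (0.667). Of these 7, 5 concern shDRP1 2 or shDRP1 3.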

How the results depend on the processing

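Counts of called members depended on scaling and on single libraries. The report has 12 higher and 19 lower. Scaling by library totals gave 19 and 10, and upper quartile 20 and 12. Leaving out shRandom 1 and 4 with shDRP1 2 and 5 (4 libraries) gave 20 and 15, and the library score 28 and 23. Over all tested genes, 40.0% were higher and 28.8% lower by library totals, and 39.2% and 29.3% by upper quartile. Those shares were 33.5% and 33.4% without the 4 libraries, and 39.1% and 37.1% with the score. Higher large subunit members numbered 5 in the report, 3 by median-ratio factors, 9 by library totals, by upper quartile and without the 4 libraries, and 13 with the score. Higher small subunit members numbered 7, and 11 by upper quartile and without the 4 libraries, 4 by DESeq2 and 15 with the score. Lower small subunit members numbered 9, and 3 by library totals and 5 by upper quartile and without the 4 libraries. Leaving out single libraries gave 6 to 18 higher and 16 to 20 lower members, 3 to 9 and 9 to 13 in the large subunit, and 3 to 9 and 7 to 9 in the small. The difference in the subunit ratio, -0.0576, was 9.21e-05 without Rpl37 and Rps20, and -0.0673 to -0.0526 without single libraries. Rpl36al/Rpl36a ranged from -0.36 to -0.14, Rps27rt/Rps27 from -0.34 to -0.12 and Rps27l/Rps27 from -0.049 to 0.0034, with 7.27e-05 without shRandom 1 and shDRP1 2. The cause was not tested.

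Of same-numbered libraries, only those numbered 4 deviated together: the correlations of deviations over 13025 genes were -0.14, -0.15, -0.24, 0.44 and -0.21 for numbers 1 to 5. The numbers were therefore not taken to pair the libraries. As a block, the replicate number left 4 higher and 12 lower members, 1 higher in the large subunit and 3 higher and 5 lower in the small. With the block, Rpl7l1/Rpl7 was -0.32 and Rpl22l1/Rpl22 0.85, each with an adjusted p of 0.156, where 5 pairs of libraries allow no p under 0.0625.

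Among single genes, 1545 recomputed values kept direction and call, 46 became calls, 122 lost theirs and 35 changed sign, all near 0. By library totals and by upper quartile, Rps27rt was 0.035 and 0.022, Rpl23a 0.016 and 0.0025, Rps12 0.062 and 0.047, Rpl31 0.023 and 0.0075, and Rps19 0.039 and 0.024. Rpl5 was -0.016 by median-ratio factors, -0.0087 without a filter, -0.021 by DESeq2 and -0.014 when thinned, and Rpl18 was -0.0026 by median-ratio factors and -0.0077 by DESeq2. Rpl7 was -0.0041 by DESeq2. Rpl19 was -0.030 without shRandom 1 and shDRP1 2 and -0.059 without the 4 libraries, where Rps12 was 0.029. Without single libraries Rpl5 ranged from -0.083 to 0.079, Rpl7 from -0.019 to 0.038, Rpl18 from -0.031 to 0.051, Rpl19 from -0.022 to 0.13 and Rplp1 from -0.038 to 0.074. Rpl3l, Rpl29 and Rps3a2 had too few counts to be tested.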

Other observations

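Of the 17 members whose human counterparts are known causes of Diamond-Blackfan anaemia, a failure of red cell production, 2 rose (Rps24 and Rps28) and 5 fell (Rpl26, Rpl35, Rps7, Rps26 and Rps29), with a median log2 fold change of -0.06. Over all tested genes, 33.9% were higher and 33.3% lower. Rps19, the gene most often mutated in that disease, averaged 877 ± 64.4 CPM in shDRP1 and 915 ± 62.5 CPM in shRandom libraries and did not pass.

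The 109 genes with the suffix -ps that the naming rule leaves out took 0.0360% ± 0.00209 of counts in shDRP1 and 0.0341% ± 0.00160 in shRandom libraries (SD, n = 5 and 6).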
